A study of Mus musculus with 34 samples.

Results

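The 10 genes described here, Mup1, Mup2, Mup3, Mup7, Mup10, Mup11, Mup12, Mup17, Mup18 and Mup20, encode mouse major urinary proteins. They were 10 of the 51368 Ensembl gene identifiers quantified and 10 of the 48 rows whose GENCODE symbol starts with Mup, of which 22 were protein-coding genes and 26 were pseudogenes. The members were chosen by their estimated levels in these same libraries across selection methods and fragment lengths, so differences between methods and between lengths are given below as a description, without a test. All 10 passed the filter on low counts. Major urinary proteins are lipocalins that hepatocytes secrete into the blood, that the kidney passes into the urine, and that carry small volatile pheromones. Their genes lie in an array of recent, nearly identical copies, flanked by more divergent members such as Mup3 and Mup20. Expression in liver is higher in males and depends on pulsatile growth hormone acting through STAT5B. Mup20 encodes darcin, a urinary pheromone protein of males that attracts females.

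RNA from the liver of 1 wild-type C57BL/6J mouse, 12 weeks old, was made into 27 libraries that combined 3 ways of handling ribosomal RNA (rRNA) with 3 PCR ramp rates (slow, medium, fast) and 3 fragment lengths (short, medium, long), with 1 library for each combination. The methods were polyA selection (TruSeq Stranded mRNA, batch 1), rRNA pull-down (TruSeq Stranded Total RNA, batch 2) and rRNA digestion (Illumina Stranded Total RNA with Ribo-Zero Plus, batch 2), each from 200 ng of RNA. Unselected liver RNA (20 ng, slow ramp, medium fragments) was prepared 3 times in each of the 2 batches, and 1 unselected heart library accompanied batch 1. PCR ran for 13 cycles throughout. Because polyA was prepared in batch 1 and both rRNA methods in batch 2, method and batch cannot be told apart in comparisons of polyA with either. The 34 libraries share 1 animal, so any spread between them is that of preparation and sequencing, not of animals.

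Library totals, in units of 1000000 estimated counts, ran from 23.5 to 41.4 for polyA, from 20.0 to 30.2 for digestion, from 19.9 to 21.7 for unselected liver, and were 22.3 for heart. The pull-down libraries held 23.4 to 39.2, except the slow-ramp, long-fragment library, which held 1.13 and is called the low-depth library here. Ribosomal RNA genes and Lars2, counted here with them, took 84.8 to 85.7% of the counts in unselected liver, 14.2 to 24.5% in pull-down and at most 1.12% in the other methods. The labels give both sexes for this mouse. Xist did not exceed 0.412 normalised CPM in any liver library, and Y-linked Ddx3y stood at 28.5 to 69.5. Normalised CPM are counts scaled to 1000000 per library after TMM factors over the 33 liver libraries, and levels below are in this unit.

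The members share most of their sequence, which limits how far a short read can be assigned to a single gene. All 10 lie on the minus strand of chromosome 4 with 7 exons each (GRCm38): Mup7 at chr4:60066469-60070475, Mup2 at chr4:60135932-60154289, Mup1 at chr4:60498012-60501960, Mup10 at chr4:60578260-60582199, Mup11 at chr4:60658466-60662411, Mup12 at chr4:60737383-60741326, Mup17 at chr4:61591929-61595871, Mup18 at chr4:61670177-61674136, Mup20 at chr4:62050234-62054158 and Mup3 at chr4:62083476-62087342. Mup22, which is not among the 10 and was singled out after its values were seen, lies between Mup12 and Mup17 at chr4:60817589-60821463. In the GENCODE M21 transcripts, Mup1 and Mup12 differed at 2 of 540 coding bases. Mup1 shared 90.37% of coding bases with Mup20 and 83.52% with Mup3.

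Mup11 and Mup18 were the closest pair of members in coding sequence. Across 543 coding bases, Mup11 differed from Mup18 by C252G alone, and Mup22 differed from Mup18 by T207A alone, with positions counted from the first base of the Mup18 start codon. Both positions are printed because the Mup18 estimate varied most of the 10 between libraries, and because Mup11 and Mup22 are nearest to it in coding sequence. Mup10 is shown beside them since it carries the same base as Mup22 at the first position, which is therefore not particular to Mup22. The first set is 57 coding bases of exon 2, read on the minus strand at chr4:61673455-61673511 in Mup18, chr4:60661730-60661786 in Mup11, chr4:60820848-60820904 in Mup22, chr4:60581521-60581577 in Mup10, chr4:62053480-62053536 in Mup20 and chr4:62086800-62086856 in Mup3. Capitals mark bases unlike Mup18 and, in the Mup18 line, the base at which Mup22 differs.
Mup18: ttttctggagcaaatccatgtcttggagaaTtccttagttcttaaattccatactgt
Mup11: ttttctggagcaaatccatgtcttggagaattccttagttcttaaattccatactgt
Mup22: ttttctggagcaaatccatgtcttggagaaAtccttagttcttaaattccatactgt
Mup10: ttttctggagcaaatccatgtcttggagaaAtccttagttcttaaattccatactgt
Mup20: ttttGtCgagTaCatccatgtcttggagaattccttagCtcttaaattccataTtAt
Mup3: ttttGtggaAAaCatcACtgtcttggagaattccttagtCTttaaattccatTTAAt

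The other set is 49 coding bases of exon 3, on the minus strand at chr4:61672637-61672685 in Mup18, chr4:60660913-60660961 in Mup11, chr4:60820031-60820079 in Mup22, chr4:60580704-60580752 in Mup10, chr4:62052661-62052709 in Mup20 and chr4:62085984-62086032 in Mup3. Capitals again mark bases unlike Mup18 and, in the Mup18 line, the base at which Mup11 differs.
Mup18: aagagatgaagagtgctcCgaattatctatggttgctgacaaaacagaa
Mup11: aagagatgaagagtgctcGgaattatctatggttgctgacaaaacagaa
Mup22: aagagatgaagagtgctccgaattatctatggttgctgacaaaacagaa
Mup10: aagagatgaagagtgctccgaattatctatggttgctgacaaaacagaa
Mup20: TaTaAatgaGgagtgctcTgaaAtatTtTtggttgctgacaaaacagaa
Mup3: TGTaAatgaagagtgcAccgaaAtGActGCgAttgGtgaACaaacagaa

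Mup20 differed from Mup18 at 7 and 8 bases of these stretches, and Mup3 at 12 and 14. Mup10 matched Mup22 in both, and over 540 coding bases it differed from Mup22 at 4 and from Mup18 at 5. Over whole transcripts, 69.0% of the 31-base windows of Mup3 and 35.5% of those of Mup20 occurred in no other annotated gene. The share was 13.8% in Mup17, 10.1% in Mup10, 7.92% in Mup12, 7.11% in Mup11, 6.89% in Mup18, 1.56% in Mup1 and 1.45% in Mup7. No 31-base window of Mup2 or of Mup22 was its own, and Mup22 shared 95.1% of its windows with Mup10. Mup18 shared the most 31-base windows with Mup16 (85.7%) and Mup11 with Mup2 (84.4%), so over whole transcripts Mup11 and Mup22 were not the genes most like Mup18. Windows of 200 bases separated the genes further: 100% of those of Mup3, 91.2% of Mup17, 73.7% of Mup20 and 37.8% of Mup7 were found in no other gene, against 14.6% for Mup18, 16.8% for Mup2 and 0.906% for Mup22. Mup3 and Mup20 thus had the most 31-base windows of their own, and Mup3 and Mup17 the most of 200 bases. Every member shared some 31-base windows with other genes. How reads were divided between them was not examined, and single-gene estimates are uncertain to the extent that reads were shared.

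In the 6 unselected liver libraries, which had no step that selects or removes RNA, Mup3 was the most abundant member per kilobase of transcript, at 2173 ± 103 normalised CPM per kilobase (SD, n = 6). Mup20 followed at 1876 ± 124, with a range that overlapped that of Mup3, although Mup3 was the higher of the pair within 6 of 6 libraries. Mup11 stood at 248 ± 30.3 and Mup7 at 175 ± 12.5, and neither range overlapped a neighbour. The remaining members were far lower: Mup10 at 25.8 ± 1.70, Mup18 at 24.3 ± 4.98, Mup17 at 15.7 ± 1.72, Mup1 at 11.0 ± 2.27, Mup12 at 5.49 ± 1.22 and Mup2 at 2.92 ± 0.452. The Mup10 range overlapped that of Mup18, that of Mup18 overlapped Mup17, and in the same way Mup17 overlapped Mup1 and Mup1 overlapped Mup12, so these neighbours were not separated by their ranges. Within single libraries Mup10 was above Mup18 in 3 of 6, Mup18 above Mup17 in 5 of 6, Mup17 above Mup1 in 6 of 6 and Mup1 above Mup12 in 5 of 6. Mup10 nevertheless lay wholly above Mup17, Mup1 and Mup12, Mup18 lay wholly above Mup1 and Mup12, and the Mup2 range lay below that of Mup12. These low levels rest on few counts, 75 to 129 per library for Mup18 and 10 to 16 for Mup2. Of all counts on Mup genes and pseudogenes in these libraries, Mup3 took 35.2 to 37.3%, Mup20 29.3 to 30.1%, Mup11 3.71 to 4.31% and Mup18 0.237 to 0.502%. Mup22, outside the list, took 16.1 to 17.6%.

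Summed over the 10 genes, the family was at its highest in polyA libraries with long fragments. Those 3 libraries stood at 11289, 10034 and 11377 normalised CPM (slow, medium and fast ramp). PolyA libraries with medium fragments stood at 6757, 5778 and 6103, and those with short fragments at 6048, 5454 and 5362. Every polyA library with long fragments was thus above every other library of the series. In pull-down, the sum was 4045 in the low-depth library and 7413 and 7947 in the other long-fragment libraries, then 6470, 6119 and 5815 with medium fragments and 5597, 5281 and 5312 with short ones. Digestion gave 4901, 4788 and 4960 with long fragments, 4658, 4723 and 4911 with medium ones, and 4608, 4492 and 4644 with short ones, so that its 9 libraries spanned a narrow range. Unselected liver stood at 4086, 4197 and 4275 in batch 1 and at 4329, 4803 and 4413 in batch 2. As a share of all counts, the 10 genes took 1.39 to 1.53% of polyA libraries with long fragments, 0.752 to 0.825% of digestion libraries and 0.0914 to 0.115% of unselected ones.

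**Figure D1:**
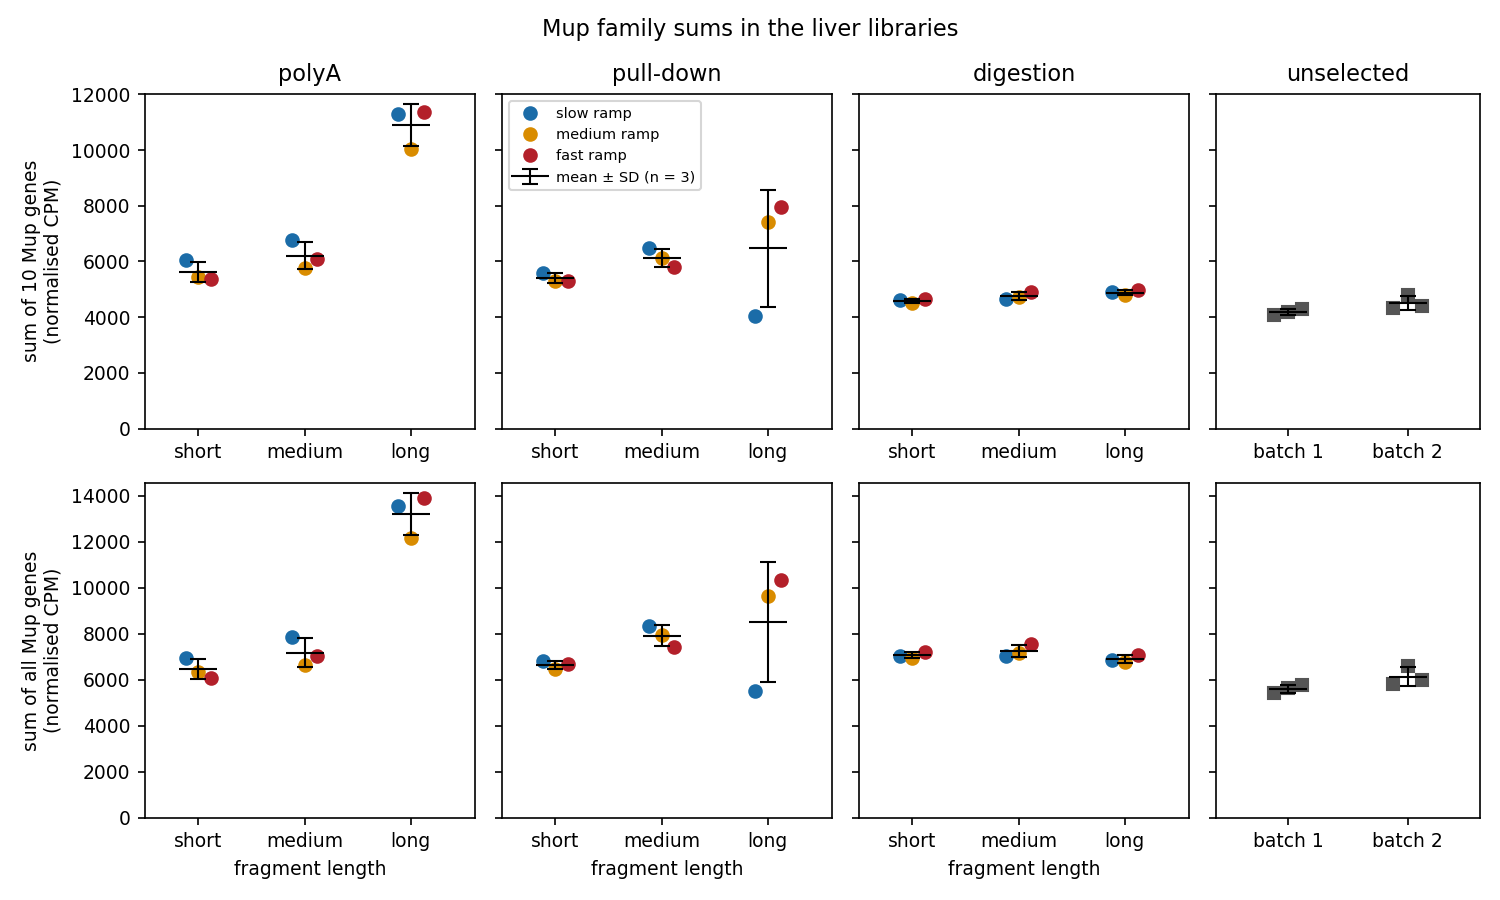
Summed normalised CPM of the 10 Mup genes and of all Mup genes and pseudogenes in each liver library, by method and fragment length; points are single libraries and bars the mean and SD of 3. The 3 polyA libraries with long fragments lie between 10034 and 11377 for the 10 genes, above all others, and the 9 digestion libraries between 4492 and 4960.

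Libraries of the same ramp and length were paired between methods. The 10-gene sum was higher in polyA than in digestion by 0.61 ± 0.42 on the log2 scale (mean and SD of 9 pairs), in 9 of 9 pairs. It was higher in polyA than in pull-down in 8 of 9 pairs, by 0.30 ± 0.49, and without the low-depth library by 0.15 ± 0.21, in 7 of 8 pairs. It was higher in digestion than in pull-down in 1 of 9 pairs, with a difference of -0.31 ± 0.28, and without the low-depth library in 0 of 8 pairs, with a difference of -0.39 ± 0.19. The gap between polyA and digestion depended on length: it was 0.29 ± 0.09 with short fragments, 0.38 ± 0.14 with medium fragments and 1.16 ± 0.08 with long fragments (3 pairs each). Between polyA and pull-down it was 0.06 ± 0.05, 0.02 ± 0.09 and 0.48 ± 0.06, the last over 2 pairs without the low-depth library. The median over all 15422 genes lay within -0.04 and 0.02 in each of these comparisons. Scaling by library totals in place of TMM moved that median to -0.28 for polyA minus digestion, 0.32 for polyA minus pull-down and 0.55 for digestion minus pull-down, and it turned the digestion minus pull-down difference of the sum to 0.24.

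Which Mup genes were summed changed this picture. With all 48 Mup genes and pseudogenes counted, polyA exceeded digestion in 4 of 9 pairs, with a difference of 0.26 ± 0.52. By length, that difference was -0.13 ± 0.11 with short fragments, -0.02 ± 0.16 with medium fragments and 0.93 ± 0.08 with long fragments. PolyA exceeded pull-down in 4 of 9 pairs for all Mup genes, with a difference of 0.17 ± 0.48, or 0.03 ± 0.23 without the low-depth library. Digestion exceeded pull-down in 5 of 9 pairs, with a difference of -0.09 ± 0.29, or -0.15 ± 0.27 without it. Adding Mup22 alone to the 10 genes gave a difference of 0.26 between polyA and digestion as well. The 10 genes took 67.1 ± 2.82% of all Mup counts in digestion, 78.2 ± 2.75% in pull-down, 85.4 ± 2.25% in polyA (n = 9 each), and 74.7 ± 0.470% and 73.6 ± 0.818% in the unselected batches (n = 3 each). With Mup22 added, the same shares were 90.7 ± 0.315%, 90.0 ± 2.50%, 90.5 ± 0.828%, 90.9 ± 0.366% and 90.4 ± 0.198%. The mean shares of the 10 genes differed between the 3 methods by more than the SD within any of them. Those of the 11 genes differed by less than the SD in pull-down and in polyA. The digestion and pull-down means of the 11 genes differed by more than the SD in digestion. In the low-depth library, which is part of the pull-down SD, the 11 genes held 5659 of 6747 Mup counts.

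Against unselected liver of the same batch, the mean difference of the 10-gene sum on the log2 scale was 0.79 for polyA, 0.39 for pull-down libraries and 0.07 for digestion. The sum was above every unselected library in 9 of 9 polyA, 8 of 9 pull-down and 3 of 9 digestion libraries, and above the unselected mean in 9 of 9, 8 of 9 and 8 of 9. For all Mup genes the digestion value was 0.21, with 9 of 9 libraries above the unselected ones. The unselected libraries had slow ramp and medium fragments, so the single library of each method with those settings is the closest match. For the sum it stood at 6757 in polyA, above the batch 1 range of 4086 to 4275, at 6470 in pull-down, above the batch 2 range of 4329 to 4803, and at 4658 in digestion, within it. By single members, 8 of 10 were above the unselected range in that polyA library and 1 was below, where 37.4% of all genes were above and 32.4% below. In that pull-down library 10 of 10 were above (35.3% of all genes above, 25.6% below). In that digestion library 5 of 10 were above and 3 below (30.2% and 22% of all genes). The 3 below in digestion were Mup10, Mup11 and Mup18. Scaled by library totals, the gaps of the sum were 3.43, 2.64 and 2.88, with the median of all genes at 2.62, 2.26 and 2.82.

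Mup3, the most abundant member in unselected liver and the one with the most sequence of its own, held a large part of the sum. On average it had 147410 of 326118 counts in polyA and 97327 of 200702 in digestion. Its likeness to the sum therefore holds in part by construction. In polyA its long minus short difference was smaller, 0.604 against 0.955 for the sum. Mup3 stood at 4407, 4018 and 4353 normalised CPM in polyA long, 3253, 2838 and 2996 in medium, and 3007, 2693 and 2712 in short libraries (slow, medium and fast). In digestion it ranged from 2190.0 to 2380 and in pull-down from 1565, in the low-depth library, to 3639. The polyA values were above the digestion values in 9 of 9 pairs, by 0.52 ± 0.27, without overlap between the methods. Mup20 stood at 4568, 4024 and 4557 in polyA long, 2594, 2235 and 2357 in medium, and 2297, 2074 and 1996 in short libraries. Digestion libraries held 1899 to 2193 of Mup20, lower than the matched polyA library in 9 of 9 pairs, by 0.47 ± 0.43. For both genes the long-fragment polyA libraries were the highest of the method. With short fragments polyA differed from pull-down by 0.04 ± 0.06 for Mup3 and 0.01 ± 0.06 for Mup20, and from digestion by 0.31 ± 0.08 and 0.14 ± 0.10 (3 pairs each).

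Mup18 differed far more. In polyA it stood at 1239, 1281 and 1656 normalised CPM with long fragments, at 58.4, 170 and 218 with medium ones, and at 25.0, 34.2 and 39.4 with short ones. Its 3 length groups did not overlap. In pull-down it was 315, 325 and 371 with long fragments, the first from 385 counts in the low-depth library, 24.3, 48.7 and 70.8 with medium fragments, and 12.6, 17.4 and 27.1 with short ones. In digestion it was 23.4, 21.5 and 19.1 with long fragments, 2.38, 2.77 and 2.96 with medium ones, and 1.62, 1.47 and 1.06 with short ones. Unselected liver held 26.6, 28.3 and 19.6 in batch 1 and 23.9, 15.6 and 21.8 in batch 2, so the same RNA gave estimates from 1.06 to 1656 across 33 libraries. Between matched pairs Mup18 was higher in polyA than in digestion by 5.39 ± 0.86 and higher in polyA than in pull-down by 1.48 ± 0.56, each in 9 of 9 pairs. It was lower in digestion than in pull-down in 9 of 9 pairs, with a difference of -3.91 ± 0.57.

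Mup11, 1 coding base from Mup18, shared its order of polyA over digestion but was not higher with long fragments in polyA. Its polyA levels were 460, 211 and 233 with long fragments, 601, 331 and 307 with medium ones, and 525, 472 and 422 with short ones. In digestion Mup11 stood between 120 and 132 in all 9 libraries, and in pull-down between 226 and 413. The digestion level was below every unselected library, by 0.97 on the log2 scale, and Mup11 was higher in polyA than in digestion by 1.58 ± 0.53 in 9 of 9 pairs. Mup22 had the opposite order of methods. It ranged from 1309 to 1927 in digestion, from 516 to 1290 in pull-down, from 210 to 1033 in polyA and from 876 to 1160 in unselected liver, and it was lower in polyA than in digestion in 9 of 9 pairs, with a difference of -2.01 ± 1.14.

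As shares of all Mup counts, Mup22 took 23.6 ± 3.04% in digestion, 11.8 ± 2.26% in pull-down and 5.07 ± 1.63% in polyA (n = 9 each). Mup18 took 10.5 ± 1.40% in polyA long and 0.516 ± 0.146% in polyA short libraries (n = 3 each), and 0.0196 ± 0.00433% in digestion short libraries. Mup11 took 2.27 ± 0.973% in polyA long and 7.32 ± 0.324% in polyA short libraries. Together Mup11, Mup18 and Mup22 took 20.0% of Mup counts in polyA long, 11.4% in polyA short, 21.7% in digestion long and 27.9% in digestion short libraries, against 20.5% and 21.2% in the unselected batches. The highest of these summed shares was thus under 3 times the lowest, while the share of Mup18 alone ran from 0.0196 to 10.5%. Summing the 3 genes did not remove the variation between libraries. Over 9 polyA libraries, log2 normalised CPM had an SD of 0.871 for the 3 genes summed, 2.43 for Mup18 and 0.524 for Mup11. The 9 digestion libraries gave 0.200, 1.79 and 0.0491 in that order, and the 9 of pull-down gave 0.362, 1.93 and 0.301.

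**Figure D2:**
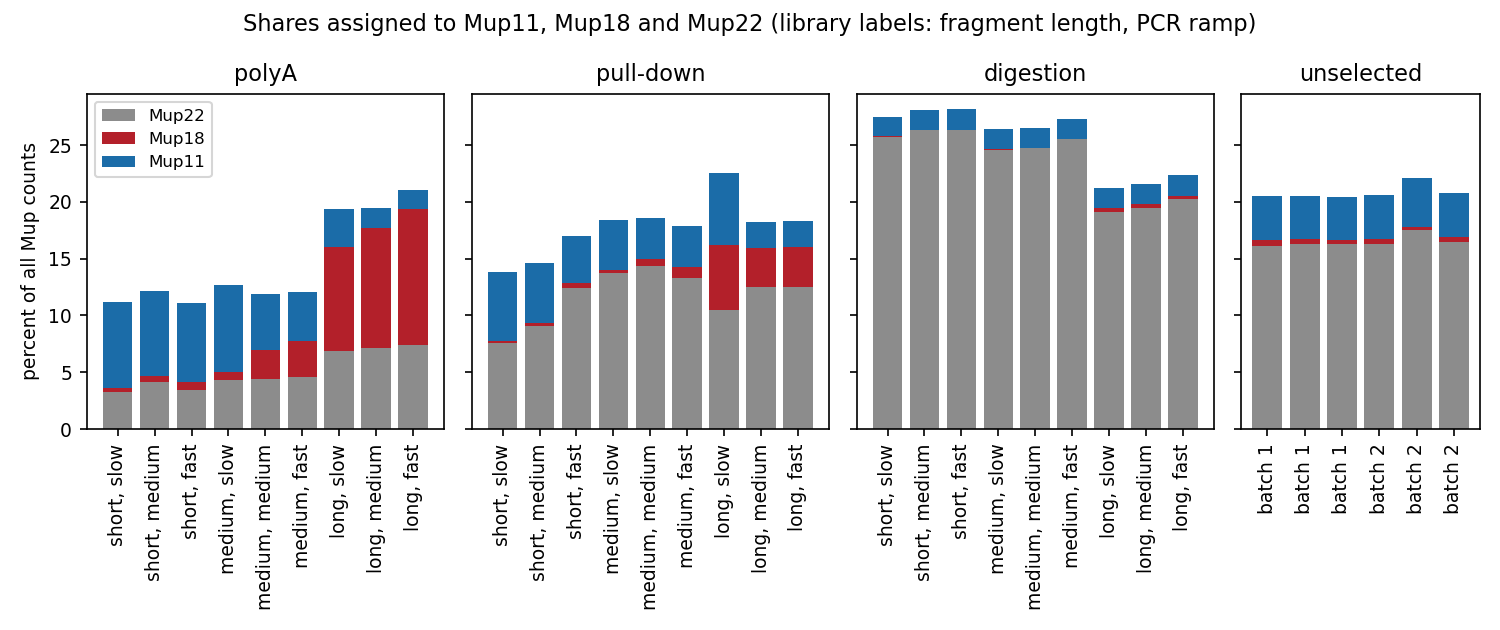
Share of all Mup counts, in percent, taken by Mup11, Mup18 and Mup22 in each liver library, by method and fragment length. Mup22 holds the most in digestion (mean 23.6%) and the least in polyA (5.07%), while Mup18 reaches 10.5% in polyA libraries with long fragments.

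The levels of the remaining members follow. Mup7 stood at 496, 398 and 461 normalised CPM in polyA long, 169, 138 and 159 in polyA medium and 116, 105 and 126 in polyA short libraries, at 179 to 221 in digestion, and at 124 to 257 in pull-down. Mup10 ranged from 31.7 to 45.8 in polyA, from 30.2 to 48.5 in pull-down and from 15.5 to 22.4 in digestion, and it was higher in polyA than in digestion in 9 of 9 pairs, by 0.96 ± 0.19. Digestion was lower than pull-down for Mup10 in 9 of 9 pairs, with a difference of -0.91 ± 0.30. Mup10 thus had the same order of polyA over digestion as Mup11 and Mup18, whereas Mup7 was higher in polyA in 3 of 9 pairs. Mup1 spanned 8.59 to 36.6 in polyA and 15.8 to 26.5 in digestion, and Mup17 spanned 12.5 to 27.8 and 17.6 to 22.8. Mup12 spanned 4.73 to 16.4 in polyA and 7.72 to 9.97 in digestion, and Mup2 0.833 to 5.17 and 2.00 to 4.27. For these 4 the polyA range enclosed the digestion range, and polyA was higher in 3 of 9 pairs for each. Those 3 pairs were the long-fragment ones, as they were for Mup7. Mup1 differed by -1.09 with short, -0.68 with medium and 0.66 with long fragments, Mup12 by -0.69, -0.62 and 0.90, and Mup7 by -0.80, -0.42 and 1.28.

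Counted over members, 5 of 10 differed between polyA and digestion in 1 direction in all 9 pairs, namely Mup3, Mup10, Mup11, Mup18 and Mup20, all higher in polyA. Among all 15422 genes 63.2% did so in either direction. For polyA against pull-down the count was 1 of 10, Mup18, where all genes gave 38.2%. Digestion against pull-down gave 3 of 10, Mup10, Mup11 and Mup18, all lower in digestion, where all genes gave 39.4%. Without the low-depth library, the count for polyA against pull-down was 2 of 10 (Mup18, and Mup2 lower in polyA; 60.1% of all genes) and that for digestion against pull-down 5 of 10 (Mup3 and Mup20 in addition; 55.9%). Against unselected liver, the libraries did not overlap for 3 of 10 members in polyA (Mup3, Mup10 and Mup20, all higher; 45.3% of all genes), for 1 of 10 in pull-down (Mup10, higher; 23.6%) and for 4 of 10 in digestion (27.1%). Without the low-depth library, pull-down also lay above unselected liver for Mup3 (2661 or more against at most 2328) and Mup20 (2059 or more against at most 1934). The share of all genes was not counted for that case. In digestion Mup1, Mup12 and Mup17 were higher, by 0.82, 0.69 and 0.37, and Mup11 was lower. The rule used these contrasts, so nothing is read from the counts.

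Long and short fragments of the same ramp formed 3 pairs within each method. In polyA the 10-gene sum was higher in long-fragment libraries by 0.95 ± 0.11 on the log2 scale, and all Mup genes by 1.03 ± 0.14. Mup18 was higher by 5.42 ± 0.21, Mup2 by 2.24 ± 0.35, Mup7 by 1.96 ± 0.12, Mup1 by 1.75 ± 0.14 and Mup12 by 1.53 ± 0.23. The abundant members differed less, Mup20 by 1.05 ± 0.13 and Mup3 by 0.60 ± 0.07, as did Mup17 by 0.77 ± 0.31. Mup10 was lower in long-fragment libraries, with a difference of -0.31 ± 0.19, and Mup11 had a difference of -0.74 ± 0.50 with overlapping libraries. In all, 9 of 10 members did not overlap between lengths, 8 higher and 1 lower, and 55.4% of all genes did not overlap. The median of the members was 1.29.

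In digestion the sum hardly differed with length, by 0.09, and all Mup genes by -0.03. Mup18 was nevertheless higher in long-fragment digestion libraries by 3.95 ± 0.17, Mup2 by 0.72 ± 0.29 and Mup20 by 0.16 ± 0.02, while Mup10 (-0.37 ± 0.16), Mup17 (-0.26 ± 0.10) and Mup7 (-0.12 ± 0.03) were lower. Those 6 of 10 members did not overlap between lengths, as was so for 33% of all genes. In pull-down 3 of 10 members did not overlap, Mup18 (4.21 ± 0.43), Mup2 (1.97 ± 0.88) and Mup1 (0.87 ± 0.27), all higher in long-fragment libraries, where all genes gave 22.2%. That count depends on the low-depth library. The other long-fragment libraries lay above every short one for Mup3 (3386 and 3639 against at most 2785). The same held for Mup20 (3129 and 3343 against 2180) and Mup7 (246 and 257 against 162). For Mup11 they lay below (226 and 231 against at least 279), and Mup10 still overlapped (38.3 and 41.5 within 33.1 to 48.5). The share of all genes was not counted without that library. The pull-down sum differed by 0.20 ± 0.58, and by 0.54 without the low-depth library and its partner. Mup18 was higher with long fragments in every pair of all 3 methods.

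**Figure D3:**
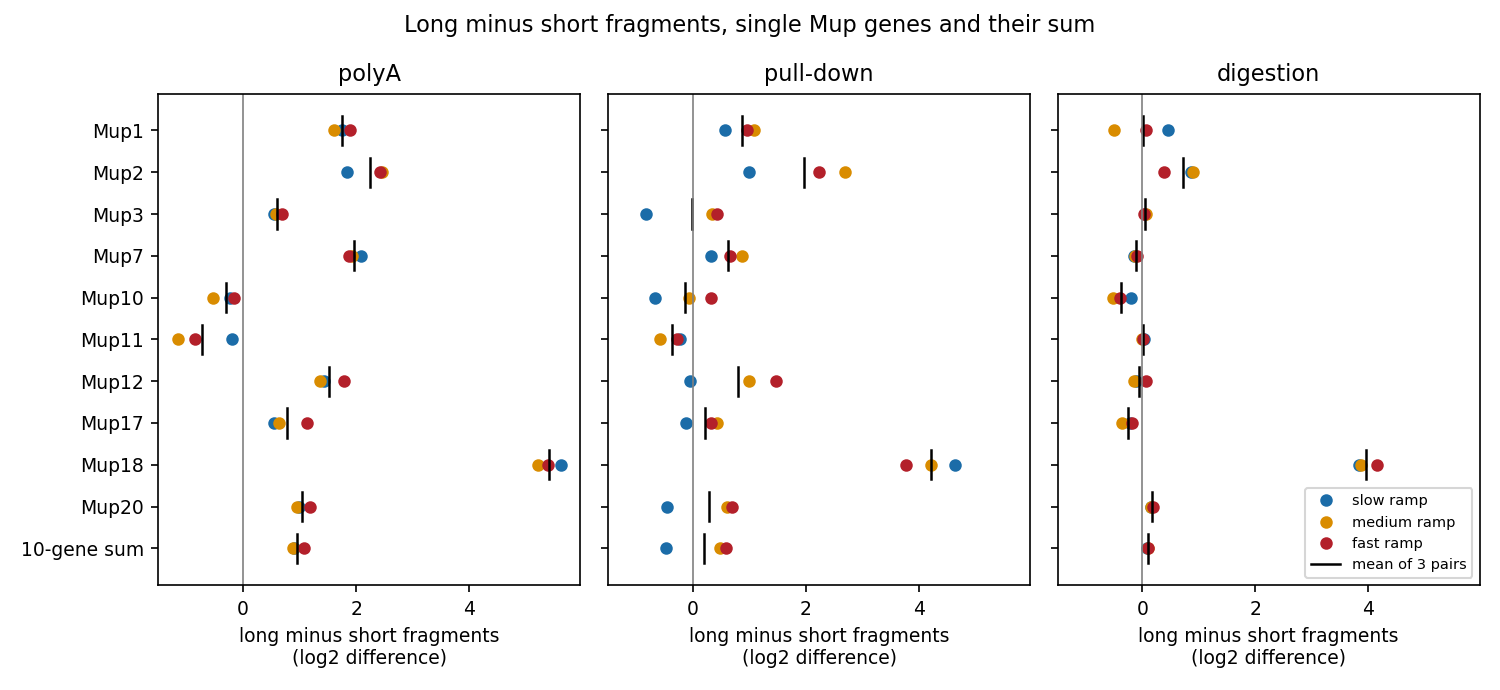
Long minus short fragments on the log2 scale of normalised CPM for each member and the 10-gene sum, by method; points are the 3 pairs matched on ramp and vertical bars their mean. In polyA, Mup18 averages 5.42 and the 10-gene sum 0.95, and in digestion the sum averages 0.09.

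The spread of single-gene estimates was compared with that of the sum, as the SD of log2 normalised CPM over the 9 libraries of a method. In digestion the sum had an SD of 0.0483 and the members a median SD of 0.125, from 0.0349 for Mup3 to 1.79 for Mup18, with 9 of 10 members above the sum. In polyA the sum had an SD of 0.455 and the members a median of 0.632, from 0.200 for Mup10 to 2.43 for Mup18, with 7 of 10 above the sum. Pull-down gave 0.288 for the sum, or 0.218 without the low-depth library, and a median of 0.361 for the members, from 0.154 for Mup17 to 1.93 for Mup18, with 8 of 10 above, or 7 of 10 without the low-depth library. With the means of ramp and length removed, 9 of 10 members were above the sum in polyA, 8 of 10 in digestion and 5 of 10 in pull-down, where the count was 9 of 10 without the low-depth library. Counting error alone would give the sum an SD of 0.00259 to 0.00747, and Mup18 one of 0.0252 in polyA and 0.145 in digestion. Fragment length, which the rule used, is part of these SDs. With ramp and length means removed, the SD of the sum was 0.0607 in polyA and 0.0197 in digestion. Mup3 and Mup20 together held most counts of the sum. Group means were 183653 of 200702 in digestion, 274607 of 326118 in polyA and 169033 of 189774 in pull-down. Summed alone, these 2 genes had an SD of 0.0513, 0.385 and 0.330 in the same order. The SD of the 10-gene sum thus says little about the near-identical copies.

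**Figure D4:**
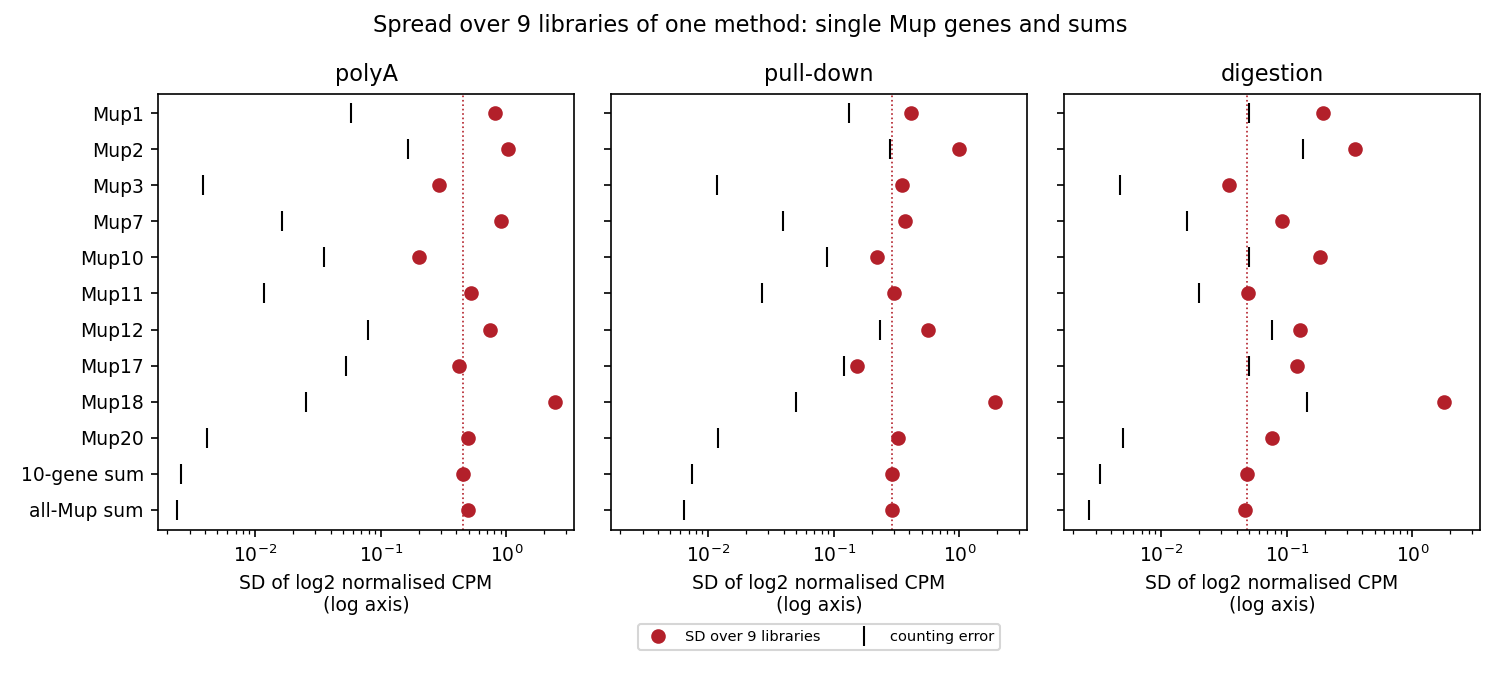
SD of log2 normalised CPM over the 9 libraries of each method (log axis) for each member, the 10-gene sum and the sum of all Mup genes and pseudogenes; points are SDs, vertical ticks the SD that Poisson counting alone would give, and the dotted line the SD of the 10-gene sum. Mup18 has the largest SD in every method (2.43 in polyA, 1.93 for pull-down, 1.79 for digestion), and in digestion the sum lies at 0.0483.

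PCR ramp rate was not used to choose the genes and was tested. In edgeR's quasi-likelihood test over the 27 selected libraries, with method and length in the model, 0 of 10 members passed an adjusted p of 0.05 (Benjamini-Hochberg over 14454 genes), where 0.00692% of all genes did. At an unadjusted p under 0.05 there were 2 members, Mup11 and Mup18, among 599 genes, and DESeq2 also called 0 members. Mup11 had a fast minus slow difference of -0.41 (SE 0.11, edgeR adjusted p 0.735) and Mup18 one of 0.71 (SE 0.20, edgeR adjusted p 0.735). By method, Mup11 was lower with fast ramp in 3 of 3 polyA pairs (-0.75 ± 0.38) and 3 of 3 pull-down pairs (-0.54 ± 0.07), and its digestion difference was 0.07 ± 0.01. Mup18 differed by 0.99 ± 0.79, 0.96 ± 0.67 and -0.20 ± 0.47 in the same order. The 10-gene sum differed by 0.06 ± 0.35 and was higher with fast ramp in 5 of 9 pairs (two-sided exact sign-flip test, p 0.910, smallest possible 0.00391). Without the low-depth library and its partner the difference was -0.05 (exact p 0.188).

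The 2 batches of unselected liver were also compared. Mup20 stood at 1617, 1653 and 1687 normalised CPM in batch 1 and at 1754, 1934 and 1798 in batch 2, with no overlap. It rose by 0.16 (SE 0.04, edgeR adjusted p 0.0398) and was the 1 member of 10 called, where 0.366% of all 10642 genes were. The call was lost on leaving out any 1 library except batch 2 replicate 1, with edgeR adjusted p from 0.0958 to 0.411 in those 5 fits, and DESeq2 gave an adjusted p of 0.173, within a range of 0.000563 to 0.411 over all alternatives. Mup11 differed by 0.24 (SE 0.06, edgeR adjusted p 0.0783), with adjusted p from 0.000173 to 1.00 over the alternatives. It was called beside Mup20 with library totals, without the filter on low counts, with the replicate number as a block and without batch 2 replicate 1. The 10-gene sum was higher in batch 2 by 0.11, in 3 of 3 libraries against the mean of batch 1 (exact permutation test, p 0.1, the smallest that 3 against 3 libraries allow).

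Related genes are set beside the family here, with counts of genes whose long and short polyA libraries did not overlap (55.4% of all genes) or that differed between polyA and digestion in 1 direction in all 9 pairs (63.2% of all genes). Of the 20 genes of the growth hormone axis and known Mup regulators, led by Hnf4a (475 ± 32.3 normalised CPM in polyA, 471 ± 7.75 in digestion, n = 9 each), 6 were higher and 8 lower in long than in short polyA libraries without overlap, or 14 of 20, with a median of -0.14, and 0 were higher and 14 lower in polyA than in digestion. Among 9 lipocalin genes outside the family that passed the filter, led by Ambp (1480.0 ± 103 and 894 ± 30.0), 0 were higher and 4 lower with long fragments, or 4 of 9, while 9 of 9 were higher in polyA than in digestion. Of the 10 male-biased liver genes, led by Cyp2d9 (613 ± 39.5 and 395 ± 6.57), 4 were higher and 3 lower with long fragments, or 7 of 10, and 7 were higher and 1 lower in polyA than in digestion. Of the 6 female-biased genes that passed, led by Cyp2a4 (80.5 ± 5.06 and 49.2 ± 3.87), 3 of 6 were lower with long fragments and 0 higher, and 1 was higher and 0 lower in polyA than in digestion. The 10 hepatocyte markers, led by Alb (48968 ± 1803 and 32843 ± 1256), gave 2 higher and 2 lower with long fragments, or 4 of 10, and 9 higher and 1 lower in polyA than in digestion. In edgeR, 0 genes of these 5 lists were called for ramp (5 of 52 tested at an unadjusted p under 0.05) and 0 for batch (7 of 46 tested at an unadjusted p under 0.05), and the lists were not counted in DESeq2.

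Among non-Mup genes, the 5 whose log2 levels had the highest Pearson correlation with the 10-gene sum over 33 libraries were C1d (0.965), B2m (0.954), Sub1 (0.946), Psmc6 (0.943) and Tdo2 (0.943). All 5 were higher in polyA libraries with long than with short fragments, for example B2m, the light chain of MHC class I, at 946 against 700 normalised CPM, and Tdo2, the liver enzyme that starts tryptophan breakdown, at 1382 against 862. Among the members, the correlation with the sum that contains them was 0.986 for Mup20, 0.964 for Mup3, 0.759 for Mup18 and 0.369 for Mup11. These libraries share 1 RNA and differ in method and length, so the values describe shared shifts between preparations.

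In heart, 107 counts of 22292137 fell on the 10 genes, or 4.80 CPM, against 943 ± 29.3 CPM in the 3 unselected liver libraries of the same batch (197 times as many). Mup3 had 62 counts and Mup20 had 44, and liver levels were 169 and 189 times those of heart. Mup11 had 1 count and the other 7 members had 0, which allows up to 0.135 CPM in that library. The 10 hepatocyte markers were 166 to 233 times higher in liver, with a median of 202, a range that includes the values of Mup3 and Mup20. Mup22, outside the list, had 12 heart counts and was 381 times higher in liver, outside that range. Cardiomyocyte markers ran the other way, with Myh6 at 5293 CPM in heart and at 0 in the unselected liver libraries. With 1 heart library there is no test, and in bulk RNA fewer cells of a type and less RNA per cell cannot be told apart. Of genes of the salivary and lacrimal glands, other known sites of Mup expression, Smr3a, Prol1 and Lpo were at 0 in all 33 liver libraries and Amy1 stood at 62.5 to 106 as group means.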

How the data were processed

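RNA-seq was made from 34 libraries, and the authors deposited expected counts (estimated reads per gene, 1 column per library). The submitters' processing notes name Salmon 1.9.0, UMI-tools 1.1.1, R 4.4.0 and build GRCm38; roles, bias correction and duplicate removal are not given in the sources used here. How reads shared by near-identical Mup copies were divided is therefore unknown, and its part in the single-gene values was not tested. Of 51368 identifiers, 50896 matched GENCODE M21, from which symbols, coordinates and transcript sequences were taken. Counts were rounded, filtered with filterByExpr (15422 genes in 33 liver libraries) and TMM-normalised in edgeR 4.0.16 (R 4.3.3; Python 3.11.15), and log2 values used 0.5 added counts. Ramp and batch were tested with glmQLFTest (Benjamini-Hochberg, adjusted p under 0.05) and the sums with exact tests; DESeq2 1.42.0, other scalings, filters and leaving libraries out were alternatives. The fit was tested on simulated data. Each of the unselected replicates differed from the others of its batch by more than sampling noise. The rule named all 10 members, other Mup genes above 10 normalised CPM in a group, the 5 most alike genes and the most abundant gene of each list. The members and gene lists were chosen with earlier results of these data known.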

Additional observations from a re-analysis of the deposited data

Results flagged for a closer look

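In pull-down libraries Mup3 stood at 1565 normalised CPM in the low-depth library (slow ramp, long fragments), farther from the other 8 libraries than the spread among them allows. Its value came from 1915 counts; 33 groups of libraries were examined in this way and chance alone picks out about 1 in 20. Mup7 was higher with long than with short fragments in every polyA pair (1.96 on the log2 scale) and every pull-down pair (0.62) and lower in every digestion pair (-0.12). Mup17 was higher in every polyA pair (0.77) and lower in every digestion pair (-0.26). These differences between methods were not tested, and the length contrast was used to choose the genes.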

How the results depend on the processing

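The count of members called between the unselected batches, 1 of 10, was 2 (Mup11 and Mup20) with library totals, 2 without the filter on low counts, 2 with the replicate number as a block, 0 with DESeq2, 0 with the 10 genes as 1 summed row, and 0 to 2 when leaving out 1 library. Same-numbered unselected libraries did not deviate together (r 0.033, -0.088 and -0.155 over 8974 genes), so the numbers do not pair them. Without the low-depth library and its partner, the ramp difference of the sum was -0.054, and those of Mup3, Mup12 and Mup20 were -0.052, -0.013 and -0.056, each with its sign turned. Library totals gave 0.24 for the sum in digestion minus pull-down, and 3.43, 2.64 and 2.88 for polyA, pull-down and digestion minus unselected, with Mup11 at 1.83 in the last. For digestion minus unselected the sum was 0.16 with rRNA genes and Lars2 left out of the totals, 0.21 with all Mup genes and 0.21 with Mup22 added, which was chosen after seeing the data. For long minus short in digestion it was 0.098 with DESeq2 size factors, -0.033 with all Mup genes and -0.043 with Mup22 added. Removing ramp and length means moved the median ratio of member SD to that of the sum from 1.39 to 2.15 in polyA, from 2.58 to 4.10 in digestion and, the other way, from 1.25 to 0.924 in pull-down, where it was 2.53 without the low-depth library, an alternative chosen after seeing the data. Between batches Mup2 turned to 0.018 with library totals and ran from -0.24 to 0.10 on leaving out 1 library, and Mup10 ran from -0.0075 to 0.13. Apart from the differences that hold by construction (other genes summed, other totals, fewer libraries), the cause was not tested. Depth limits Mup18 in digestion short libraries, Mup2 and Mup12.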

Other observations

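Mup13, which is not among the 10 genes, was estimated at 2575 counts in the polyA library with slow ramp and short fragments, 847 with medium ramp and short fragments, 0 with fast ramp and short fragments and 472 with slow ramp and medium fragments. It had 168 counts (137 normalised CPM) in the low-depth pull-down library and 0 in every unselected liver library of batch 1 and in heart. The other Mup genes outside the 10 with a mean above 10 normalised CPM in a group, beside Mup22, were Mup14, Mup15, Mup16, Mup19 and Mup21. Mup14 stood at 440.02 ± 141 normalised CPM for polyA, 403 ± 102 for pull-down and 291 ± 18.7 for digestion, and Mup19 at 287 ± 177, 258 ± 77.1 and 311 ± 19.4. Mup21 stood at 59.1 ± 27.4, 51.1 ± 13.9 and 27.2 ± 3.23, Mup15 at 47.7 ± 24.1, 22.1 ± 7.71 and 16.6 ± 3.20, and Mup16 at 10.9 ± 9.63, 5.34 ± 5.46 and 4.06 ± 0.697 (n = 9 each). All 5 were higher with long than with short fragments in 3 of 3 polyA pairs, by 0.85 for Mup14, 1.77 for Mup19, 1.37 for Mup21, 1.39 for Mup15 and 2.58 for Mup16 on the log2 scale. Hbb-bs, the most abundant of 4 erythroid genes, stood at 2.09 ± 0.382 normalised CPM in digestion, 163 ± 17.3 in pull-down and 139 ± 12.7 in polyA (n = 9 each), against 100.2 ± 4.66 and 94.6 ± 3.91 in the unselected batches. The most abundant marker of Kupffer cells, Cd5l, stood at 29.9 ± 1.36, 66.3 ± 11.0 and 29.5 ± 1.07 for polyA, pull-down and digestion, that of sinusoidal endothelium, Stab2, at 23.5 ± 1.81, 93.9 ± 6.58 and 65.4 ± 1.83, that of stellate cells, Reln, at 19.0 ± 0.309, 103 ± 8.53 and 78.8 ± 1.74, and that of cholangiocytes, Spp1, at 20.9 ± 2.42, 16.0 ± 3.34 and 12.1 ± 0.907. Single markers need not stand for their lists. Against digestion, 2 of 5 Kupffer markers were higher and 2 lower in polyA in all 9 pairs (63.2% of all genes in 1 direction). The same counts were 1 and 4 of 5 for sinusoidal endothelium, 1 and 3 of 5 for stellate cells and 2 and 1 of 4 for cholangiocytes. In digestion minus pull-down, 1 of 4 cholangiocyte markers was higher and 0 lower (39.4% of all genes in 1 direction).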
